A study of Mus musculus with 12 samples.

Results

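Tuft cells are rare chemosensory cells of the intestinal epithelium, and 9 genes that mark them were examined in the duodenum of mice given corticosterone (CORT), the main glucocorticoid of rodents, or vehicle (Veh). The 9 genes were found by symbol among the 55416 genes of the intestine table, and all 9 were listed once. They are Dclk1 (ENSMUSG00000027797), Avil (ENSMUSG00000025432), Trpm5 (ENSMUSG00000009246), Gnat3 (ENSMUSG00000028777), Pou2f3 (ENSMUSG00000032015), Il25 (ENSMUSG00000040770), Il17rb (ENSMUSG00000015966), Ptgs1 (ENSMUSG00000047250) and Alox5ap (ENSMUSG00000060063). RNA-seq libraries were made from 3 CORT and 3 Veh duodenums, and 3 CORT and 3 Veh livers of the same experiment were sequenced too. All animals were male C57BL6/J mice, 8 weeks old at the start and kept in a specific pathogen free facility. The CORT group received 40 mg/kg by subcutaneous injection daily for 8 weeks, and the Veh group received the same solvent of DMSO and Tween-80 in water. No group lacked the daily injections, and the labels do not say which liver and which duodenum came from 1 mouse.

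Tuft cells sense luminal compounds with parts of the taste pathway, in which a receptor acts through a G protein and a phospholipase C, calcium is released through an IP3 receptor, and the cation channel TRPM5 opens. The factor POU2F3 specifies the lineage. Tuft cells secrete the cytokine IL-25 and make cysteinyl leukotrienes, which act on innate lymphoid cells of the lamina propria, and IL-13 from those cells is known to increase the number of tuft and goblet cells. As a type 2 immune circuit this is best known from infection with worms and with some protists.

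Values are in TPM, an abundance corrected for transcript length and scaled within each library. TPM do not hold the number of reads, so depth is unknown and only the spread between replicates gives the precision. Differences were tested on log2(TPM + 1) with limma in the 13607 genes whose Veh or CORT mean reached 1 TPM, and a gene was called at an adjusted p of 0.05 or less with a fold change over 1.5. With 3 samples against 3, an exact permutation test of 1 gene cannot give a two-sided p below 0.1. The treatment itself was plain in Fkbp5, a glucocorticoid-induced gene, at 252 to 379 TPM in CORT and 8.68 to 23.3 TPM in Veh libraries. As a check of the tissue, Gata4 of the proximal intestine was at 78.6 to 113 TPM, and the ileal genes Fabp6 and Slc10a2 did not exceed 0.73 TPM. Pancreatic acinar transcripts set Veh2 and Veh3 apart, with 33 genes that no other marker list holds making up 4.76% and 3.88% of TPM there and 0.0294% to 0.0562% in the other 4 libraries. In the same 2 libraries 10 absorptive enterocyte genes summed to 32376 and 32167 TPM, against 47910 to 67545 TPM. Apoa1, Apoa4 and Fabp1 made up most of these sums. Alpi went the other way, at 2704 and 2888 TPM against 2415 TPM or less, and Sis lay within the range of the others. A 4-gene duodenal list summed to 420 and 459 TPM against 119 to 184 TPM. Slc40a1 made up most of that gap, at 263 and 302 TPM against 3.22 to 56.0 TPM. Cybrd1 was also highest in Veh2 and Veh3, at 13.6 and 8.53 TPM against 0.64 to 2.00 TPM. So was Pdx1, at 41.9 and 40.6 TPM against 8.13 to 32.4 TPM. Gata4 did not share the gap.

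Of the 9 genes, 7 reached the limit on expression, in both groups, and none of the 7 was called. At an unadjusted p under 0.05 the count was also 0 of 7, where 2.15% of all tested genes were called (0.919% lower and 1.23% higher in CORT) and 19.2% had such a p. In 6 of the 7 the CORT mean was lower on the log2 scale and in Ptgs1 it was higher. The widest gaps lay within the Veh group: 7 of 7 were highest in Veh2, a vehicle duodenum, and 6 of 7 were there at more than 2 times the level of every other library. Veh2 was the highest library for 13.3% of all tested genes and exceeded all others by more than 2 times for 1.26%. In tissue RNA, more tuft cells and more RNA per tuft cell cannot be told apart.

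**Figure D1:**
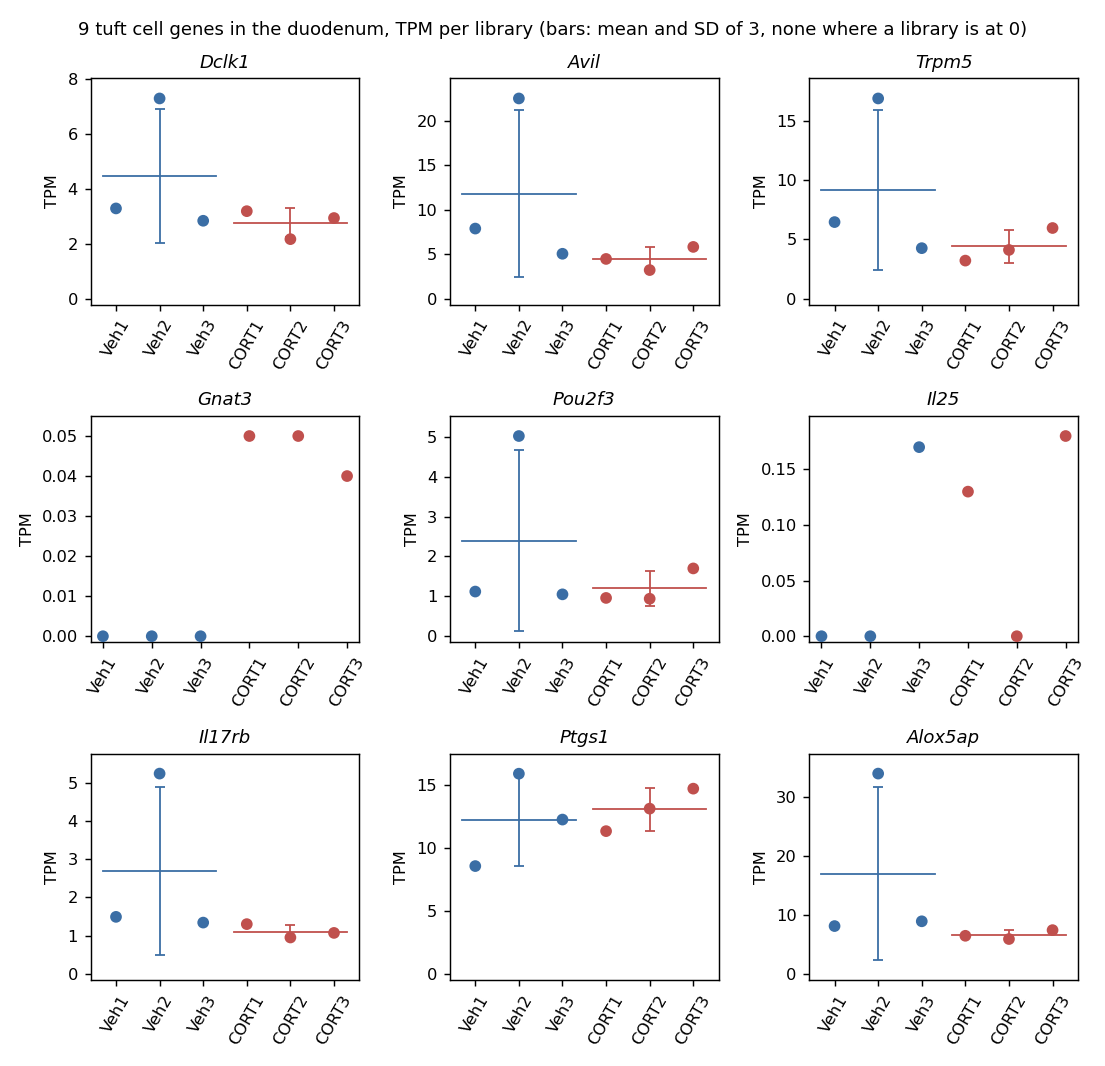
TPM (vertical axes, each from 0 and on its own scale) of the 9 tuft cell genes in the 3 Veh (blue) and 3 CORT (red) duodenum libraries, with the mean and SD of each group for genes above 0 in all libraries. The Veh2 point stands above all others for Dclk1, Avil, Trpm5, Pou2f3, Il17rb and Alox5ap, and the other 5 points of these genes lie close together.

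Among the genes of cell structure, Avil encodes advillin, an actin-binding protein of the tuft cell's apical bundle. Avil was at 7.87, 22.5 and 5.04 TPM in Veh1, Veh2 and Veh3 and at 4.46, 3.21 and 5.81 TPM in CORT1, CORT2 and CORT3. Veh2 was 2.86 times the next library, and Veh3 lay within the range of the CORT libraries, so the groups overlapped. The log2 difference, CORT minus Veh, was -1.002 (standard error 0.48, limma adjusted p = 0.314), with a 95% interval from -2.13 to 0.13. Dclk1, a microtubule-associated kinase much used as a tuft cell marker and also expressed by neurons, measured 3.29, 7.30 and 2.84 TPM in Veh1, Veh2 and Veh3, with 3.19, 2.17 and 2.94 TPM in CORT1, CORT2 and CORT3. Apart from Veh2, the CORT and Veh values of Dclk1 were interleaved. Its log2 difference was -0.46 (standard error 0.31, limma adjusted p = 0.452), and the 95% interval ran from -1.18 to 0.26.

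For the transduction pathway, Trpm5 gave 6.46, 16.9 and 4.26 TPM in the Veh duodenums, against 3.21, 4.11 and 5.96 TPM with CORT. The groups overlapped between Veh3 and CORT3, and Veh2 was 2.61 times the next library. The log2 difference was -0.74 (standard error 0.44, limma adjusted p = 0.408), with a 95% interval from -1.79 to 0.30. Gnat3 encodes gustducin, the G protein alpha subunit of taste cells. It was listed at 0 in every Veh library, while CORT1, CORT2 and CORT3 held 0.05, 0.05 and 0.04 TPM, far under the limit of 1 TPM, and so was not tested. Gnat3 was at 0 in the library where Trpm5 was highest, but values this low cannot show whether it followed Trpm5.

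Pou2f3, the lineage factor, had Veh values of 1.12, 5.02 and 1.05 TPM and CORT values of 0.96, 0.94 and 1.70 TPM. CORT3 was above both Veh1 and Veh3, and Veh2 was 2.95 times CORT3. Its log2 difference was -0.45 (standard error 0.43, limma adjusted p = 0.598). The 95% interval, from -1.47 to 0.57, holds both a large fall and a rise.

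Of the cytokine pair, Il25 itself was close to the lower end of the table. It was listed at 0 in Veh1, Veh2 and CORT2, at 0.17 TPM in Veh3, at 0.13 TPM in CORT1 and at 0.18 TPM in CORT3. The library with the highest levels of 7 members thus listed no Il25, but values this low cannot show whether Il25 followed them. Il17rb, which encodes the subunit of the IL-25 receptor that binds the cytokine, is expressed by tuft cells and by type 2 lymphoid cells. Il17rb measured 1.49, 5.24 and 1.34 TPM in Veh1, Veh2 and Veh3, with 1.30, 0.95 and 1.07 TPM in CORT1, CORT2 and CORT3. All 3 CORT values lay below all 3 Veh values, and CORT1 and Veh3 nearly met. The log2 difference was -0.66 (standard error 0.38, limma adjusted p = 0.399).

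The last pair makes eicosanoids. Alox5ap, whose product presents arachidonic acid to 5-lipoxygenase for leukotriene synthesis, gave 8.10, 33.98 and 8.91 TPM in the Veh duodenums, against 6.45, 5.90 and 7.41 TPM with CORT. The groups did not overlap, and Veh2 was 3.81 times the next library, the widest gap among the 9 genes. Its log2 difference was -0.96 (standard error 0.49, limma adjusted p = 0.342), with a 95% interval from -2.11 to 0.20. Alox5ap and Il17rb were thus the 2 of 7 tested members whose groups did not overlap, a pattern shown by 26.4% of all tested genes. Ptgs1 encodes cyclooxygenase 1, which many cell types of the gut wall express. It had Veh values of 8.57, 15.9 and 12.3 TPM and CORT values of 11.4, 13.1 and 14.7 TPM. Veh2 was the highest here too, but by 1.08 times, and Veh1 was the lowest. The log2 difference of Ptgs1 was 0.12 (standard error 0.22, limma adjusted p = 0.803), and without Veh1 it was -0.10.

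Without Veh2 the differences of the 6 genes with lower CORT means shrank, and that of Ptgs1 grew to 0.31. Again none of the 7 genes was called, none had an unadjusted p under 0.05, and 0.561% of all genes tested in the remaining 5 libraries were called. The median log2 difference of the members moved from -0.66 to -0.20, beside -0.01 and -0.02 over all tested genes. Avil moved to -0.44 (limma adjusted p = 0.517), Trpm5 to -0.24 (limma adjusted p = 0.723) and Alox5ap to -0.33 (limma adjusted p = 0.433). Pou2f3 changed sign, to 0.060. The 95% intervals still allowed differences of size, from -1.11 to 0.22 for Avil, from -0.91 to 0.43 for Trpm5 and from -0.56 to 0.68 for Pou2f3. Leaving out Veh3 instead widened the differences, to -1.42 for Avil and -1.12 for Trpm5, and neither was called (limma adjusted p = 0.246 and 0.319). Those 2 genes had an unadjusted p under 0.05 in that fit, and Alox5ap had one without Veh1.

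**Figure D2:**
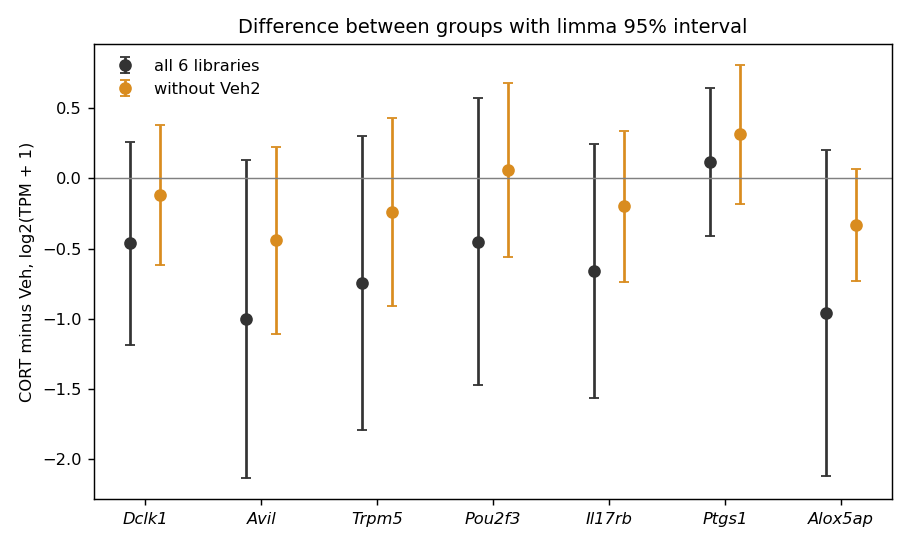
Difference CORT minus Veh on the log2(TPM + 1) scale (vertical axis) for the 7 tested tuft cell genes, with limma's 95% interval, from all 6 libraries (black) and without Veh2 (orange). Every interval holds 0, and without Veh2 the estimates lie between -0.44 and 0.31.

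The spread among the members can be read from their levels in the CORT libraries, none of which stood apart in these genes. Ptgs1 had the highest mean, 13.1 ± 1.69 TPM (SD, n = 3), and its lowest CORT value was above the highest of any other member. Alox5ap followed at 6.59 ± 0.764 TPM, then Avil at 4.49 ± 1.30 TPM and Trpm5 at 4.43 ± 1.40 TPM, each SD over n = 3. Avil and Trpm5 did not differ beyond their spread. Dclk1 was at 2.77 ± 0.532 TPM, and Pou2f3 at 1.20 ± 0.433 TPM and Il17rb at 1.11 ± 0.178 TPM were not separable from each other. In the Veh group the order was led by Alox5ap at 17.0 ± 14.7 TPM, and with SDs of this size the means alone did not rank neighbours. Within every Veh library, though, the order from high to low was Avil, Trpm5, Dclk1, Il17rb and Pou2f3. Ptgs1 was above Alox5ap in Veh1 and Veh3 and below it in Veh2. Differences between genes were not tested. Summed over the 9 genes, Veh2 held 107 TPM and the other 5 libraries 30.5 to 39.8 TPM.

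A wider list of tuft cell genes, which holds none of the 9, was read in the same way. Of its 36 genes in the table, 28 were tested, 23 with a lower and 5 with a higher CORT mean on the log2 scale, and the median log2 difference was -0.44. Veh2 was the highest library for 19 of the 28 and more than 2 times every other library for 12. Measured from each gene's median library, Veh2 lay at a median of 1.12 for these genes and 1.53 for the members on the log2 scale, and at -0.01 for all tested genes. In the other 5 libraries the medians of both lists lay between -0.25 and 0.09. In the 7 epithelial genes shared by all absorptive and secretory cells, Veh2 summed to 4157 TPM, under the 4223 to 5429 TPM of the others.

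**Figure D3:**
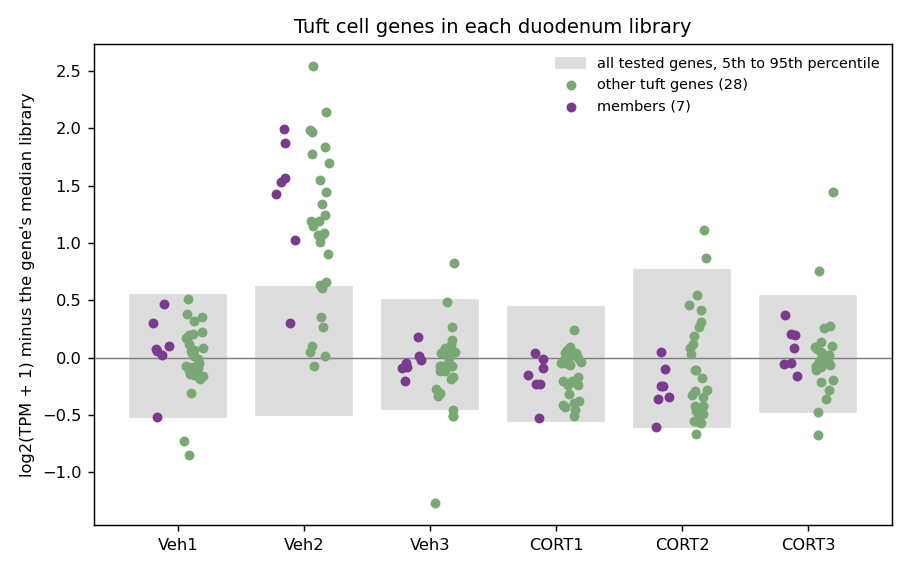
Distance of each duodenum library from a gene's median library, in log2(TPM + 1) (vertical axis), for the 7 tested members (purple) and 28 other tuft cell genes (green), over the range from the 5th to the 95th percentile of all tested genes (grey). Only in Veh2 do most tuft cell genes lie above the grey range.

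By role, the gap of Veh2 was counted in the wider list. Of 10 adaptor and kinase genes, 9 were highest in Veh2 and 7 were there at more than 2 times any other library, and of 5 tested transduction genes the counts were 3 and 1. Lrmp, whose product binds IP3 receptors, was at 50.8 TPM in Veh2 and at 9.90 to 12.9 TPM in the other 5 libraries. The SH2 adaptor Sh2d6, named after its values were seen, had the widest gap of the wider list, with 48.0 TPM in Veh2 and 4.65 to 7.69 TPM elsewhere. Among the transcription genes, Spib was at 17.0 TPM in Veh2 and at 3.31 to 7.17 TPM in the others, and 1810046K07Rik, which encodes a coactivator of POU2F3, was at 17.7 TPM against 4.97 to 11.6 TPM.

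Not every tuft list gene shared the gap. In leukotriene synthesis, Alox5, the partner of Alox5ap, was at 16.6 TPM in Veh2 and at 2.13 to 4.34 TPM in the other 5 libraries. Ltc4s, which makes leukotriene C4, was at 38.3 TPM in Veh2 and reached 39.2 TPM in Veh1. On the cell surface, Siglecf was at 12.96 TPM in Veh2 against 1.92 to 2.92 TPM, while the receptor chains for IL-4 and IL-13 had no such gap. Il4ra was at 16.9 TPM in Veh2 and ran from 16.8 to 19.1 TPM over the 6 libraries. Il13ra1 was at 40.4 TPM in Veh2 and ran from 27.5 to 48.3 TPM. Of the structural genes, Espn, which other cells with a brush border express too, was at 153 TPM in Veh2, within the 110 to 184 TPM of the others. Itpr2, with the second highest level of the transduction genes, was at 5.27 TPM in Veh2 and at 1.72 to 5.74 TPM elsewhere.

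Genes outside the members whose log2(TPM + 1) was among the 5 most like the members' mean z-score over the 6 libraries were Hmx3 (Pearson r = 0.996), Siglecf (r = 0.993), Pik3r5 (r = 0.993) and Strip2 (r = 0.992). Their r is a description over 6 libraries of which Veh2 alone stood apart in the members, and any gene that is high in Veh2 scores well on it. Hmx3 was at 3.17 TPM in Veh2 and 0.31 to 0.67 TPM elsewhere, Pik3r5 at 10.2 against 2.46 to 3.35 TPM, and Strip2 at 4.43 against 0.88 to 1.16 TPM. Of the first 50 genes by this measure, 6 were on the wider tuft list, 2 on the mast cell list and 1 on the type 2 list, and 41 were on none.

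The promoters of genes that were high together in Veh2 are shown with that of Ptgs1, which showed no such gap. POU2F3 binds octamer motifs, so the 250 bases before the start of each member with a window were searched on both strands. The searches were for the octamer ATGCAAAT, for its first 7 letters, ATGCAAA, which every octamer also holds, and for the palindromic glucocorticoid response element. RefSeq windows (build GRCm38.p6, not the GRCm39 named for the reads) were matched for 6 members, with 7 starts. Pou2f3, Il25 and Alox5ap had no window and were not searched. Capitals mark ATGCAAA on either strand. The windows are Avil at chr10:127000459-127000708 (plus strand), Trpm5 at chr7:143094643-143094892 (minus strand), Il17rb at chr14:30008897-30009146 (minus strand) and Ptgs1 at chr2:36230176-36230425 (plus strand), each printed from 5′ to 3′ in the direction of the gene.
Avil: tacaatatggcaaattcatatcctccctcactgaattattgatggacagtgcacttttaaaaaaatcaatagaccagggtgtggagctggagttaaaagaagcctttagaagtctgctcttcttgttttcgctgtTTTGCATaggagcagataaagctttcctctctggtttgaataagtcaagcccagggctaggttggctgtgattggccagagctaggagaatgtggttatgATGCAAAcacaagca
Trpm5: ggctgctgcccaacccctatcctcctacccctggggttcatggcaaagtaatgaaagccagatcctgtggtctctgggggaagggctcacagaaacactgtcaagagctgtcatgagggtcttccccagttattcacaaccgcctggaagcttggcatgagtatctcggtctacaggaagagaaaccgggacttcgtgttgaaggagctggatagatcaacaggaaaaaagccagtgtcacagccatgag
Il17rb: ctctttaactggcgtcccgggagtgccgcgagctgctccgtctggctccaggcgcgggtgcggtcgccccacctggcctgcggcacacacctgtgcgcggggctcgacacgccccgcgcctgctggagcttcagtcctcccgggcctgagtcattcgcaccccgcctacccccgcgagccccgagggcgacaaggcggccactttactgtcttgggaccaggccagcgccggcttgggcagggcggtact
Ptgs1: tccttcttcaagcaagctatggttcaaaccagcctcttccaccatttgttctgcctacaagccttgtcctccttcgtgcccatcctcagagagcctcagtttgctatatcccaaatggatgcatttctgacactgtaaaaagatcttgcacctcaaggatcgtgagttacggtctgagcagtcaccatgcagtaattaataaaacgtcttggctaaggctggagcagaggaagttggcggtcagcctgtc
Avil held ATGCAAA in both orientations, beginning 115 and 15 bases before the start, and no other member's window held it. Of all 32851 RefSeq windows of this length, 4.12% held ATGCAAA, 1.6% held the octamer and 0.387% held the palindrome. Neither the octamer nor the palindrome was found in the 7 windows. A match is a string of letters and not a measured binding site.

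The genes of type 2 immunity, the circuit that IL-25 feeds, ranged widely in level, from Stat6, a transducer of IL-4 and IL-13 signals at 47.1 to 57.2 TPM, to genes listed at 0. Of 21 genes, 11 were tested and 0 were called, and 0 of the 11 had an unadjusted p under 0.05 in limma. The cytokines themselves were at or near 0: Il13 was listed at 0.39 TPM in Veh2 and at 0 in the other 5 libraries, Il5 at 0.08 TPM in Veh2 and at 0 elsewhere, Il9 at 0 throughout, and Il4 at 0 in all Veh libraries and at 0.64 TPM or less in CORT. Il33, the epithelial alarmin, was at 5.99 TPM in Veh2 and ran from 3.99 to 14.99 TPM in the others.

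Veh2 was the highest library for 3 of the 11 tested type 2 genes, and these 3, with Klrg1, which was not tested, are given here as chosen after their values were seen. Retnlb, a goblet cell protein induced by IL-13, was at 239 TPM in Veh2 and at 1.12, 0.75, 0, 0.27 and 0 TPM in Veh1, Veh3, CORT1, CORT2 and CORT3. Its log2 difference of -3.15 did not pass (standard error 1.76, limma adjusted p = 0.381), although the groups did not overlap. Retnla was at 2.97 TPM in Veh2 and at 0.70 TPM or less elsewhere. Klrg1, found on activated lymphoid cells, was at 2.16 TPM in Veh2, 0.62 TPM in Veh1 and 0.16 TPM in Veh3, and at 0.08 TPM or less in the CORT libraries. Il1rl1, the IL-33 receptor of mast cells and type 2 lymphoid cells, was at 2.80 TPM in Veh2 and at 0.33 to 1.37 TPM in the others. Other genes of the list were highest elsewhere, such as Gata3, a factor of type 2 lymphoid cells, at 0.72 TPM in Veh2 and 2.27 TPM in Veh1, and Areg at 18.0 TPM in Veh2 and 19.9 TPM in CORT2.

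The mast cell list was highest in the same library. Of its 9 genes, 4 passed the limit on expression, and all 9 were highest in Veh2, where they summed to 211 TPM against 6.68 to 9.55 TPM in the other 5. The mucosal mast cell proteases made up most of this, with Mcpt1 at 142 TPM in Veh2 and at 0.92 to 4.36 TPM elsewhere, and Mcpt2 at 57.1 TPM against 0.43 to 1.04 TPM. Cpa3 was at 3.19 TPM in Veh2 and at 1.15 TPM or less in the others, and Fcer1a at 1.77 TPM against 0.25 TPM or less. The gap was narrower in Kit, at 5.28 TPM against 2.49 to 3.60 TPM. Hdc was at 0.96 TPM in Veh2 and 0.90 TPM in Veh1, and Cma1, Tpsb2 and Ms4a2 did not exceed 0.63 TPM in any library. Mast cells express Alox5ap, Alox5 and Ptgs1 as well, and the part of these cells in the levels of tuft cell genes was not tested.

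**Figure D4:**
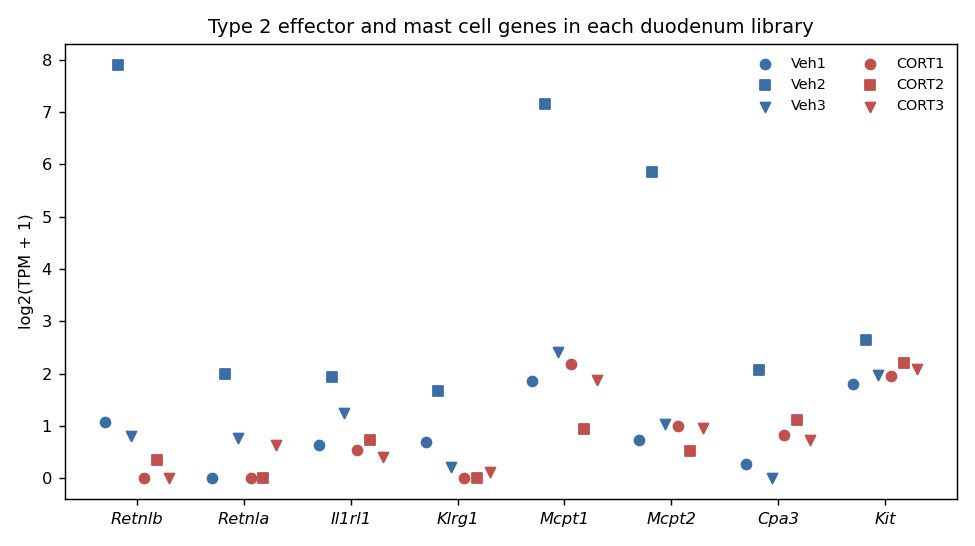
Level as log2(TPM + 1) (vertical axis) of 4 type 2 genes and 4 mast cell genes in the 3 Veh (blue) and 3 CORT (red) duodenum libraries. The Veh2 square is the highest point for all 8 genes, with Retnlb at 239 TPM and Mcpt1 at 142 TPM, and the other libraries lie near the floor for most of them. The 4 type 2 genes were chosen after their values were seen, and Veh2 was the highest library for 3 of the 11 tested type 2 genes.

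Other cell types were read in the same libraries. Smooth muscle genes were highest in Veh2 for 5 of 5, with a sum of 747 TPM against 242 to 493 TPM. Enteric neuron and glia genes summed to 27.2 TPM in Veh2 and 15.5 to 25.25 TPM elsewhere, with 3 of 10 highest in Veh2. Platelet genes summed to 11.4 TPM in Veh2 and 1.91 to 6.10 TPM elsewhere, with 2 of 4 highest in Veh2. The part of these cell types in the levels of tuft cell genes was not tested. For leukocyte genes Veh2 summed to 227 TPM and Veh3 to 212 TPM, with 114 to 178 TPM in the others, and for macrophage genes Veh2 at 266 TPM lay within the 165 to 287 TPM of the rest. Enteroendocrine genes, at 604 TPM in Veh2 and 582 to 786 TPM elsewhere, did not share the gap. Goblet cell genes as a list did not either, at 10186 TPM in Veh2 and 10683 to 13748 TPM in the others. Of these 7 genes, 2 were highest in Veh2: Clca1 at 855 TPM against 273 to 436 TPM, and Spdef at 10.5 TPM against 7.87 to 9.46 TPM. Veh3 carried nearly as large an acinar share as Veh2, and the 9 members summed to 35.9 TPM there and to 107 TPM in Veh2. With the acinar genes removed and the libraries rescaled, the members' median log2 difference was -0.69 and none of the 7 was called. Rescaling does not change which tissue a library holds, and the part of pancreatic tissue in the levels of tuft cell genes was not tested.

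In the wider list, the single call in the comparison of CORT with Veh fell on a signaling gene. Plcg2, a phospholipase C of immune and tuft cells, measured 12.9, 20.4 and 13.9 TPM in Veh1, Veh2 and Veh3, with 7.16, 6.27 and 5.68 TPM in CORT1, CORT2 and CORT3. Every CORT value lay below every Veh value, and Plcg2 fell by 1.16 on the log2 scale (standard error 0.19, limma adjusted p = 0.035). The call stood without Veh1 and was lost without each of the other libraries, where the limma adjusted p ran from 0.0747 without Veh2 to 0.113 without Veh3, while the difference stayed between -1.28 and -0.97. It was lost too without a filter on low values (0.0896) and with the libraries scaled to the epithelial genes (limma adjusted p = 0.0894). That 1 of 28 genes was called stands beside 0.919% of all tested genes called lower.

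The taste phospholipase Plcb2 gave 2.19, 3.41 and 3.92 TPM in the Veh duodenums, against 1.36, 1.19 and 1.43 TPM with CORT, with a log2 difference of -0.82 (standard error 0.21, limma adjusted p = 0.098). Itpr3, the IP3 receptor downstream of it, had Veh values of 20.6, 21.6 and 21.6 TPM and CORT values of 15.3, 13.01 and 13.6 TPM. Its log2 difference of -0.58 had the narrowest spread of the group (standard error 0.12, limma adjusted p = 0.061). Neither passed the threshold. In both genes all CORT values lay below all Veh values, and Veh2 was close to another Veh library or below it. With the acinar genes removed and the libraries rescaled, Itpr3 was called (log2 difference -0.61, limma adjusted p = 0.0491). Krt18, a keratin that tuft cells hold in large amounts and other epithelial cells in smaller ones, measured 142, 256 and 141 TPM in Veh1, Veh2 and Veh3, with 131, 98.6 and 112 TPM in CORT1, CORT2 and CORT3. Its log2 difference was -0.60 (standard error 0.25, limma adjusted p = 0.258), and without Veh2 it was -0.32 (limma adjusted p = 0.461). These 4 are the tested genes of the wider list with an unadjusted p under 0.05, all 4 lower in CORT, where 10.5% of all tested genes had such a p and were lower. Their groups did not overlap either, which held for 4 of the 28 in the lower direction and for 14.3% of all tested genes. None of the 4 is restricted to tuft cells.

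**Figure D5:**
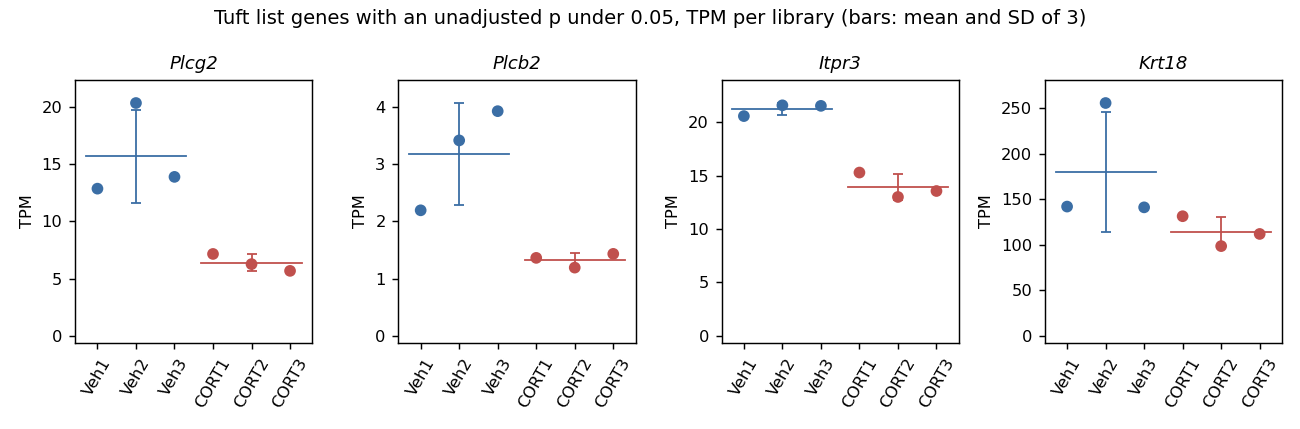
TPM (vertical axes from 0) of Plcg2, Plcb2, Itpr3 and Krt18 in the 3 Veh (blue) and 3 CORT (red) duodenum libraries, with the mean and SD of each group. All CORT points lie below all Veh points in each panel, and Itpr3 shows no gap between Veh2 and the other Veh libraries.

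In the liver, which has no tuft cells in its parenchyma, 6 of the 9 genes were at 0.18 TPM or less in all 6 libraries, with Gnat3 and Il25 listed at 0 throughout. The 3 genes found there were Il17rb, Ptgs1 and Alox5ap, and none was called, where 6.92% of tested liver genes were. Il17rb was at 3.27, 11.4 and 4.87 TPM in the Veh livers and at 2.42, 3.43 and 3.47 TPM in the CORT livers. The liver labelled replicate 2 of the Veh group held the highest Il17rb, as did the duodenum of that label, and whether they came from 1 mouse is not given. Ptgs1 was at 1.75, 2.61 and 1.46 TPM in the Veh livers and at 2.35, 4.76 and 5.43 TPM in the CORT livers, a log2 difference of 0.78 that did not pass (standard error 0.28, limma adjusted p = 0.142). Alox5ap was at 3.07, 2.66 and 3.13 TPM in the Veh livers and at 2.33, 5.64 and 4.78 TPM in the CORT livers, with overlapping groups and a log2 difference of 0.35 (standard error 0.26, limma adjusted p = 0.445). The tables of the tissues were scaled apart, and the difference between tissues was not tested.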

How the data were processed

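RNA-seq of 3 CORT and 3 Veh duodenums and of 3 CORT and 3 Veh livers was analysed. The authors used SeqPrep and Sickle for trimming, HISAT2 for alignment, StringTie for assembly and RSEM for quantification, and deposited 1 TPM value for each gene in each library (intestine sums between 993160 and 997319). The submitters' notes name GRCm39; tool versions and the annotation release are not given in the sources used here. Each tissue was fitted alone on log2(TPM + 1) with limma 3.58.1 in R 4.3.3 (lmFit, eBayes with a trend, treatment as the only term) in genes whose Veh or CORT mean reached 1 TPM, with Benjamini-Hochberg adjustment over all of them (13607 in intestine, 11699 in liver). The fit was tested on simulated data. Count models were not used because the tables hold no counts.

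The members and lists were chosen with earlier results of these data known. Named genes were the 9 members, listed genes called or with an unadjusted p under 0.05, the 2 highest genes of each role group of the wider list, and the 5 genes most like the members. A gene that this rule names is not reported here. Alternatives were a pseudocount of 0.1, no filter or a limit of 2 TPM, a block for the replicate number, omission of each library in turn, removal of acinar genes, median-ratio scaling, scaling to 7 epithelial genes, no variance trend, and other thresholds. The labels call the replicates biological and do not say that numbers pair samples.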

Additional observations from a re-analysis of the deposited data

How the results depend on the processing

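None of the 7 tested members was called under any of the alternatives that were run, including the scaling to epithelial genes and each library left out, and the same held for the type 2 list. Their median log2 difference stayed negative, from -0.91 (without Veh3) to -0.20 (without Veh2) as each library was left out. Among single members, Pou2f3 ran from -0.72 to 0.060 and Ptgs1 from -0.10 to 0.31 in these fits, with the change of sign without Veh2 and without Veh1. In the wider tuft list the count of 1 called gene became 0 without a filter on low values, 0 under the replicate block and 0 when scaled to epithelial genes, 2 with the acinar genes removed and 3 at unadjusted p-values with the 1.5-fold limit kept, and lay between 0 and 1 in the fits of 5 libraries. Over all genes the 292 calls became 52 without a filter, 62 under the replicate block and 1395 at unadjusted p-values with that limit, and lay between 66 and 237 in the fits of 5 libraries. Deviations of same-numbered libraries correlated at 0.05, 0.07 and -0.004, so the numbers were not taken to pair samples, and not every library correlated best with its own number. Gnat3 and Il25 could be fitted only without a filter, and neither was called (limma adjusted p = 0.377 and 0.777). TPM hold no depth, so values under 1 TPM carry an unknown counting error.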

Other observations

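Among the 50 genes most like the members over the 6 duodenum libraries, several that belong to no marker list were also nearly confined to Veh2, and those named here were chosen after their values were seen. Pla2g4c, a cytosolic phospholipase A2 of the family that releases arachidonic acid, was at 93.7 TPM in Veh2 and at 0.73 TPM or less in the other 5 libraries. Mptx1, a mucosal pentraxin, was at 36.2 TPM in Veh2 and at 0.43 to 1.65 TPM elsewhere. Gsdmcl2, of the gasdermin C family, was at 8.48 TPM in Veh2 and at 0.36 TPM or less in the others. With a single library at these levels, the values describe that library and not the vehicle group.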
